A study of Mus musculus with 8 samples.

Results

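A set of 10 target genes of the transcription factor p53 was examined in mouse hippocampus: Cdkn1a, Mdm2, Ccng1, Bax, Trp53inp1, Eda2r, Phlda3, Sesn1, Zmat3 and Gadd45a. They were taken by gene symbol from a count table of 46078 entries and served as a readout of DNA damage in mice that carry a Cre recombinase transgene. All 10 had a row in the table, and 9 had enough counts to be tested among 15859 genes. Eda2r did not. The groups were 4 hippocampal RNA libraries of Cre mice, hemizygous for Tg(Camk2a-cre)2Gsc (also called CamiCre), and 4 of wild-type (WT) mice without the transgene. Both groups were 9 weeks old and of strain C57BL/6J, and no floxed gene is named. In this line regulatory DNA of Camk2a, a kinase gene of excitatory forebrain neurons, drives Cre. Bulk RNA averages those neurons with interneurons, glia and vessels, so fewer cells of a type and less RNA per cell cannot be told apart. The labels number the libraries and do not say whether each came from a separate animal, so p-values measure the spread between these libraries.

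p53 is held at a low level in unstressed cells by the ubiquitin ligase Mdm2. When DNA breaks, kinases such as ATM and ATR release p53 from this control, and it binds paired copies of a short DNA element near its targets and raises their transcription. The targets stop the cell cycle, restrain growth signalling, promote cell death or, as Mdm2 does, switch p53 off again. Cre cuts and rejoins DNA at loxP sites and, at high levels, can also cut similar sequences in the mouse genome. Neurons no longer divide, and in them p53 is known chiefly for driving death after injury.

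The element that p53 binds is shown first, because it is what ties these genes to the factor. The p53 decamer is 10 bases long, with 3 purines, a C, an A or T at both central positions, a G and 3 pyrimidines. It reads alike on both strands. RefSeq promoter windows (GRCm38.p6) run from 250 bases before a transcript start to 50 bases into it, and 8 of the 10 genes were matched, with 10 windows of 300 bases. Trp53inp1 and Zmat3 had no window. An exact decamer occurred in 6 of these 10 windows, against 2745 of all 32851 windows (8.36%). Among 45 windows of the further p53 targets described below, 9 held one (20%). For 2 genes a second decamer with at most 1 mismatch adjoined the exact one. This arrangement was found in 29 of the 32851 windows (0.0883%) and in 2 of those 45 (4.44%). It was searched for after the windows had been seen. The windows of the 2 genes are printed 5′ to 3′ on the gene's strand, with exact decamers in capitals. The Cdkn1a window is chr17:29090729-29091028 (plus strand) and belongs to a start 2.79 kb upstream of the other annotated one. The Ccng1 window is chr11:40755237-40755536 (minus strand).
Cdkn1a: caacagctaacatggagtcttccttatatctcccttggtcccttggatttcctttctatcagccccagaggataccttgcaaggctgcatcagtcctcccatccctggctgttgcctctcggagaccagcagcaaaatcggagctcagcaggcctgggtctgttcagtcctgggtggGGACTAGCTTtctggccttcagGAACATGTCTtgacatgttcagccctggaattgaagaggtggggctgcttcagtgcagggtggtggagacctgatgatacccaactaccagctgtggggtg
Ccng1: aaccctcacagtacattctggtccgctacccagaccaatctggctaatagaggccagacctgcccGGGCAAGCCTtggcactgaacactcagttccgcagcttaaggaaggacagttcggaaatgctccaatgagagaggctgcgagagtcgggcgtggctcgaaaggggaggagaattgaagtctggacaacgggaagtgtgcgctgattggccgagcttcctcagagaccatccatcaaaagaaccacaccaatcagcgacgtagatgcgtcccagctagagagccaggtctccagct

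In Cdkn1a the decamer GAACATGTCT is followed directly by tgacatgttc, which departs from the motif at 1 position, and a further decamer, GGACTAGCTT, lies 12 bases before the first. In Ccng1 the decamer GGGCAAGCCT is preceded directly by agacctgccc, again with 1 mismatch. The other genes with a match, 4 in number, held a lone exact decamer. In Bax it was AGGCAAGCTT, 201 bases before the transcript start on chromosome 7, and in Mdm2 GAACTTGCCT, 186 bases before it on chromosome 10. Gadd45a held GGGCTAGCCC 40 bases before its start on chromosome 6. In Sesn1, AAGCTTGTTT lay 173 bases before the inner of its 2 starts on chromosome 10. A match is a description of the letters and does not show that p53 bound there in these tissues. The genes were chosen as known p53 targets, so the count is no independent result.

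The labelled groups stood furthest apart, by p, on Slc6a7 and Syt2, which are named for that difference, so their values describe the groups and are no check of the labels. Syt2, a calcium sensor of synaptic vesicle release, had 164 to 188 CPM (counts scaled to a common library size) in Cre libraries and 32.8 to 41.5 CPM in WT libraries. Slc6a7, a proline transporter, had 289 to 334 CPM in Cre and 67.6 to 78.9 CPM in WT. The gene Ppp1r12b overlaps Syt2 on the opposite strand, with 31868 counts over the 8 libraries against 20745 for Syt2. The strand setting of the counting is not given, so reads of these 2 genes cannot be told apart with certainty. All 10 markers of hippocampal excitatory neurons were detected in every library. Library totals were 21339996 to 27826871 counts in Cre and 24289522 to 26950207 in WT. The 6 tested choroid plexus markers of 8 summed to 123 to 158 CPM in Cre libraries, while WT replicate 1 stood apart at 1576 CPM and the remaining WT libraries had 122 to 146 CPM. Folr1, Kcnj13 and Otx2 of that list were at 0 in at least 1 library. The 12 microglia markers averaged 5.22 log2 CPM in Cre replicate 1, and no other library exceeded 4.83.

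None of the 9 tested p53 targets passed the threshold, an adjusted p under 0.05 from edgeR's quasi-likelihood test over all 15859 genes. The adjusted p was 0.999 for each of the 9 with this test. Over all genes 0.0315% passed (5 genes). At an unadjusted p under 0.05 there were 0 of 9 members, against 3.50% of all genes, and DESeq2 and limma voom also gave 0 at either limit. The Cre and WT libraries overlapped in all 9, while they did not overlap in 2.31% of all genes. Fold changes lay above 0 on the log2 scale for 7 members and below 0 for 2, where 50.2% of all tested genes lay above 0. Their median was 0.04 (log2), against 0.00036 over all tested genes.

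The confidence limits bound the change of each gene in RNA of the whole hippocampus. A change confined to the neurons that express Cre is averaged with other cells, and these limits do not bound it. For 6 of the 9 genes (Mdm2, Ccng1, Bax, Phlda3, Sesn1 and Zmat3) the 95% interval stayed within a 1.2-fold change in either direction, as it did for 58.0% of all tested genes. For 8 of the 9, all but Cdkn1a, it stayed within 1.5-fold, as it did for 81.7% of all genes. The highest upper limit was 1.53-fold, for Cdkn1a, and the lowest lower limit 0.805-fold, for Gadd45a. Over the 14 other edgeR fits that left out a library or changed a setting, the highest upper limit of a tested member was 1.69-fold, again for Cdkn1a, without WT replicate 4.

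**Figure D1:**
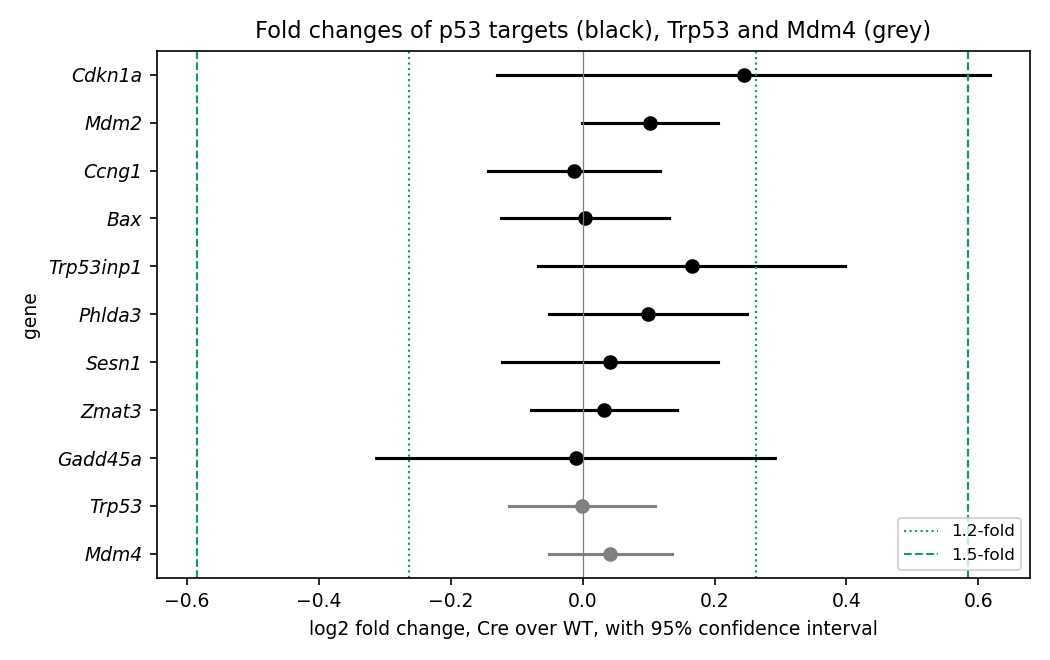
Log2 fold change of Cre over WT (points) with its 95% confidence interval (lines) for the 9 tested p53 targets in black, and for Trp53 and Mdm4 in grey. Green lines mark 1.2-fold and 1.5-fold changes in either direction. Every interval of the 9 targets includes 0, and the interval of Cdkn1a is the widest.

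Levels differed widely between the genes when set per length, as mean CPM per kilobase of annotated exon over all 8 libraries. Ccng1 (19.5 ± 1.28) and Bax (18.6 ± 1.03) stood highest, followed by Sesn1 (14.6 ± 1.33), Phlda3 (10.7 ± 0.756), Mdm2 (10.01 ± 0.580) and Zmat3 (7.75 ± 0.384) (SD, n = 8). Trp53inp1 (2.59 ± 0.344), Gadd45a (2.41 ± 0.292) and Cdkn1a (2.40 ± 0.525) were lower, and Eda2r was the lowest at 0.0540 ± 0.0283. Neighbours in this order differed by less than the larger of their SDs for Ccng1 and Bax, for Phlda3 and Mdm2, and among Trp53inp1, Gadd45a and Cdkn1a.

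Of the genes that act back on p53, Mdm2 had the smallest p of the set. Mdm2 encodes the ligase that marks p53 for degradation and spans 117688875 to 117710758 on the minus strand of chromosome 10 (GRCm38). It had 51.5, 51.6, 50.5 and 57.2 CPM in Cre replicates 1 to 4, against 47.8, 50.6, 50.2 and 47.8 CPM in WT replicates 1 to 4. Cre replicate 4 was the highest of all 8 libraries, and the groups overlapped only in that Cre replicate 3 lay just under WT replicate 2. The change was 1.07-fold (95% interval 0.9998 to 1.15), or 0.10 on the log2 scale (SE 0.05, unadjusted p = 0.0506 by edgeR). An exact 2-sided permutation test gave p = 0.0571, where 0.0286 is the smallest p that 4 libraries against 4 allow. The unadjusted p fell below 0.05 in 5 of 16 alternative fits (0.0338 to 0.0475), and the adjusted p in those 5 by edgeR was 0.998 or more.

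Ccng1 encodes cyclin G1, which brings the phosphatase PP2A to Mdm2, and lies at 40748552 to 40755311 on the minus strand of chromosome 11. It had 60.7, 65.8, 72.9 and 73.1 CPM in Cre replicates 1 to 4, against 67.3, 67.4, 66.9 and 73.7 CPM in WT replicates 1 to 4. Cre replicate 1 was the lowest library and WT replicate 4 the highest, so the Cre values ran across nearly the whole range. The change was 0.991-fold (95% interval 0.906 to 1.08; exact permutation p = 0.686).

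Trp53inp1 encodes a stress-induced p53 cofactor that also takes part in autophagy, and lies at 11156431 to 11174379 on the plus strand of chromosome 4. It had 17.8, 17.1, 17.9 and 18.1 CPM in Cre, against 13.2, 17.7, 13.4 and 19.0 CPM in WT. The 4 Cre libraries lay close together, while WT replicates 1 and 3 were low and WT replicate 2 lay inside the Cre range and WT replicate 4 above it. The change was 1.12-fold (95% interval 0.954 to 1.32; exact permutation p = 0.343).

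Among the genes of cell cycle arrest, Cdkn1a, which encodes the kinase inhibitor p21 and is the usual marker of p53 activity, had the highest fold change and the widest relative spread of the 9 tested genes. It lies at 29090976 to 29100727 on the plus strand of chromosome 17. Another annotated gene, whose symbol had no entry among the counts, overlaps it on the opposite strand. Cdkn1a had 8.33, 8.18, 9.01 and 11.5 CPM in Cre replicates 1 to 4, against 5.52, 9.04, 6.69 and 10.1 CPM in WT replicates 1 to 4. WT replicates 1 and 3 were below every Cre library, and WT replicates 2 and 4 lay inside the Cre range. For Trp53inp1 too, WT replicates 1 and 3 were below every Cre library. The change of Cdkn1a was 1.18-fold (95% interval 0.914 to 1.53), or 0.24 on the log2 scale (SE 0.17; exact permutation p = 0.286). Its pooled coefficient of variation within groups was 22.3%, above that of 97.0% of the 500 tested genes nearest to it in mean level, whose median was 9.92%.

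Gadd45a encodes a growth arrest protein that binds the replication clamp PCNA, and lies at 67035096 to 67037457 on the minus strand of chromosome 6. It had 5.23, 4.35, 3.79 and 3.59 CPM in Cre, against 4.30, 4.60, 4.24 and 3.91 CPM in WT. The Cre libraries held both the highest and the lowest value. The change was 0.993-fold (95% interval 0.805 to 1.22; exact permutation p = 0.914). The gene E230016M11Rik overlaps it on the opposite strand with 382 counts over the 8 libraries, against 848 for Gadd45a, and since the strand setting of the counting is not given, reads of both cannot be told apart with certainty.

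Zmat3 encodes a zinc finger protein that binds RNA, and lies at 32334792 to 32366014 on the minus strand of chromosome 3. It had 86.7, 91.4, 89.3 and 91.0 CPM in Cre, against 78.4, 91.5, 90.6 and 90.0 CPM in WT. All libraries but WT replicate 1 lay within a narrow range. The change was 1.02-fold (95% interval 0.947 to 1.10; exact permutation p = 0.771).

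The targets that restrain growth signalling were Sesn1 and Phlda3. Sesn1 encodes a sestrin that holds back the growth kinase complex mTORC1, and lies at 41809935 to 41908424 on the plus strand of chromosome 10. A short annotated transcript, 9930024M15Rik, overlaps it on the same strand, and that symbol had no entry among the counts. Sesn1 had 55.6, 53.1, 60.2 and 66.1 CPM in Cre, against 51.7, 56.6, 55.5 and 64.9 CPM in WT. Replicate 4 was the highest of its group in both, and the ranges nearly coincided. The change was 1.03-fold (95% interval 0.919 to 1.15; exact permutation p = 0.657).

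Phlda3 encodes a small protein that competes with the kinase Akt for membrane lipids. It lies at 135766119 to 135769136 on the plus strand of chromosome 1, beyond Syt2, which ends at 134762593 on the same strand. Phlda3 had 19.1, 16.4, 17.4 and 15.9 CPM in Cre, against 15.2, 16.6, 16.4 and 16.0 CPM in WT. Cre replicate 1 was the highest and WT replicate 1 the lowest, and the groups overlapped. The change was 1.07-fold (95% interval 0.966 to 1.19; exact permutation p = 0.229).

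The genes of cell death were Bax and Eda2r. Bax encodes the protein that opens the outer mitochondrial membrane in apoptosis, and lies at 45461697 to 45466898 on the minus strand of chromosome 7. A further annotated gene overlaps its upstream end on the same strand. Its symbol had no entry among the counts, so how reads there were assigned is uncertain. Bax had 27.6, 27.0, 31.5 and 31.2 CPM in Cre, against 29.1, 28.5, 29.3 and 30.3 CPM in WT. Cre replicates 1 and 2 lay below and Cre replicates 3 and 4 above all WT values. The change was 1.003-fold (95% interval 0.918 to 1.10; exact permutation p = 0.971).

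Eda2r encodes a receptor of the tumour necrosis factor family that binds ectodysplasin A2, and lies at 97333840 to 97377216 on the minus strand of the X chromosome. It gave 8, 12, 8 and 4 counts in Cre replicates 1 to 4, against 6, 14, 2 and 9 counts in WT replicates 1 to 4. These counts are too low for the filter, and the groups covered much the same range. In total there were 32 counts in Cre and 31 in WT, which scaled to library size is a ratio of 1.08 (exact Poisson 95% limits 0.640 and 1.84, covering counting error only). The spread between libraries is not in those limits, so at this depth a change beyond them could also have gone undetected.

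**Figure D2:**
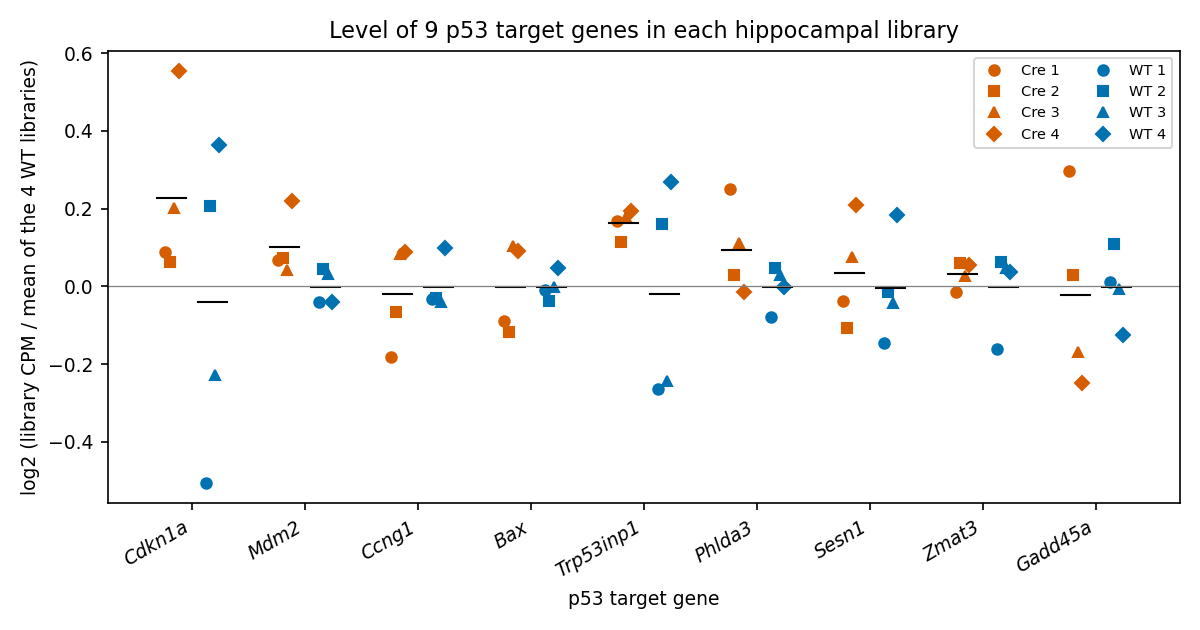
Level of the 9 tested p53 targets in each library, as log2 of the library's CPM over the mean of the 4 WT libraries. Cre libraries are orange and WT libraries blue, symbols give the replicate number, and black bars are group means of these log2 values. The groups overlap for every gene, and WT replicates 1 and 3 lie low for Cdkn1a and Trp53inp1.

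The libraries did not separate by genotype across the 9 genes. Cre replicate 4 was the highest library for 3 of them, Cre replicate 1 and WT replicate 4 for 2 each, and Cre replicate 3 and WT replicate 2 for 1 each. WT replicate 1 was the lowest library for 6 of the 9. For Mdm2 it was level with WT replicate 4 to 3 digits. It is also the library with the highest choroid plexus markers, whose part in these values was not tested. Without it the median of the 9 log2 fold changes was 0.00090 and 5 of 9 lay above 0. Cdkn1a then had a log2 fold change of 0.11 (95% interval -0.22 to 0.44) and Trp53inp1 one of 0.09 (-0.13 to 0.31). Without Cre replicate 1, the library highest in microglial markers, the median was 0.05 and 8 of 9 lay above 0, with 0 called by edgeR and 1 (Mdm2) at an unadjusted p under 0.05.

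After Cdkn1a, the members that ranked highest in spread within groups among genes of like level were Sesn1 and Trp53inp1. The pooled coefficient of variation was 9.75% for Sesn1, above 95.2% of the 500 nearest genes, and 13.5% for Trp53inp1, above 94.6% of them. Ccng1 followed with 7.08% (84.6%). The other 5 genes exceeded between 39.8% (Phlda3) and 68.0% (Zmat3) of their neighbours.

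The p53 gene itself, Trp53, lies at 69580359 to 69591873 on the plus strand of chromosome 11. It had 19.5, 19.6, 19.4 and 19.3 CPM in Cre, against 19.6, 20.2, 19.1 and 18.8 CPM in WT. The 4 Cre values lay inside the WT range, and the log2 fold change was -0.00071 (SE 0.05, 95% interval -0.11 to 0.11). p53 is controlled mainly through its protein, which RNA counts do not measure. Mdm4, the relative of Mdm2 that masks p53, averaged 78.2 ± 3.93 CPM in Cre and 75.9 ± 1.43 CPM in WT (SD, n = 4 each), a log2 fold change of 0.04 (SE 0.04). Of 21 genes for p53 and its regulators, 20 were tested and 0 passed, with 13 above 0 and a median of 0.01. The smallest p belonged to Ppp1r13l, an inhibitor of p53, with a log2 fold change of 0.23 (SE 0.16), and to Trp53bp2, which directs p53 towards death genes, with 0.08 (SE 0.05). Brd7, a chromatin cofactor, had 0.06 (SE 0.05), and the deacetylase gene Sirt1 had 0.08 (SE 0.07). Mean log2 CPM over the tested genes of this list was 5.290 to 5.308 in Cre and 5.248 to 5.287 in WT. These means did not overlap, and their difference was not tested. The summed levels, 1257 to 1323 CPM in Cre and 1249 to 1298 CPM in WT, did overlap.

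A further list of 40 p53 targets gave the same count of calls. Of these, 37 were tested and 0 passed by edgeR, with 25 above 0 and a median log2 fold change of 0.04. Abhd4 alone had an unadjusted p under 0.05, where 2.05% of all tested genes did so with a higher level in Cre. Abhd4, a lipid hydrolase gene, had 65.9, 52.6, 52.2 and 48.0 CPM in Cre, against 47.2, 49.2, 49.2 and 48.7 CPM in WT. Cre replicate 1 alone stood far above the rest, and Cre replicate 4 lay inside the WT range (log2 fold change 0.17, SE 0.08). Without Cre replicate 1, Abhd4 had 0.07 (unadjusted p = 0.158 by edgeR). Btg2, an antiproliferative gene that neuronal activity also induces, averaged 23.4 ± 6.16 CPM in Cre and 17.6 ± 5.77 CPM in WT (0.41, SE 0.22). Ddit4, an inhibitor of mTORC1 induced by several stresses, averaged 70.3 ± 1.92 CPM in Cre and 65.0 ± 7.51 CPM in WT (0.11, SE 0.07). Rrm2b, a subunit of ribonucleotide reductase used in DNA repair, averaged 43.5 ± 1.36 CPM in Cre and 45.9 ± 1.91 CPM in WT (-0.08, SE 0.04). The death genes Bbc3, encoding PUMA, and Pmaip1, encoding NOXA, had log2 fold changes of -0.01 (SE 0.11) and 0.07 (SE 0.27).

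The machinery that detects and repairs breaks was counted likewise. Of 25 genes of DNA break signalling, 25 were tested, 0 passed by edgeR, and 14 lay above 0, with a median of 0.02. An unadjusted p under 0.05 was found for 3, all higher in Cre, as for 2.05% of all tested genes, and for 1 (Rad1) without Cre replicate 1. Rad1, part of the clamp that is loaded at damaged DNA, had 7.07, 7.75, 7.54 and 7.50 CPM in Cre, against 6.00, 6.01, 7.02 and 6.50 CPM in WT. The groups did not overlap, though Cre replicate 1 lay only just above WT replicate 3 (log2 fold change 0.23, SE 0.09, adjusted p = 0.999 by edgeR), and groups did not overlap in 2.31% of all genes. Leaving out 1 library at a time, the unadjusted p of Rad1 by edgeR ranged from 0.0156 to 0.0719. Atr, the kinase of single-stranded DNA, averaged 16.0 ± 2.20 CPM in Cre and 13.7 ± 0.891 CPM in WT (0.22, SE 0.09). Cre replicate 1 was its highest library, and without it the log2 fold change of Atr was 0.12 (unadjusted p = 0.113 by edgeR). Rad50, of the complex that holds broken ends, averaged 22.6 ± 1.11 CPM in Cre and 20.6 ± 0.882 CPM in WT (0.13, SE 0.06). Chek1, a checkpoint kinase gene, was low at 1.33 ± 0.372 CPM in Cre and 1.04 ± 0.291 CPM in WT (0.36, SE 0.26), and had 0.15 without Cre replicate 1.

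Of 30 genes of strand break repair, 29 had a row, 28 were tested and 0 passed by edgeR, with 15 above 0 and a median of 0.0029. Xrcc4, a scaffold of end joining, averaged 7.34 ± 0.591 CPM in Cre and 6.40 ± 0.454 CPM in WT (log2 fold change 0.19, SE 0.10). Dclre1c, the end-joining nuclease Artemis, had 0.17 (SE 0.09) and the recombination gene Rad52 had 0.13 (SE 0.08). The helicase gene Blm had -0.25 (SE 0.15). Here 0 of 28 had an unadjusted p under 0.05.

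Of 20 genes of the BCL2 family and caspases, 19 were tested and 0 passed by edgeR, with 9 above 0 and a median of -0.0029. Mcl1, which blocks Bax and its relatives, had 77.7, 74.2, 80.6 and 81.7 CPM in Cre, against 67.5, 74.5, 71.4 and 74.5 CPM in WT. Cre replicate 2 fell within the WT range and the other Cre libraries lay above it (log2 fold change 0.13, SE 0.05, unadjusted p = 0.0172 by edgeR). The initiator caspase gene Casp8 had 0.36 (SE 0.22) at 2.11 ± 0.0859 CPM in Cre and 1.64 ± 0.522 CPM in WT. Bmf and Bad, which promote death, had 0.20 (SE 0.16) and -0.08 (SE 0.07).

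**Figure D3:**
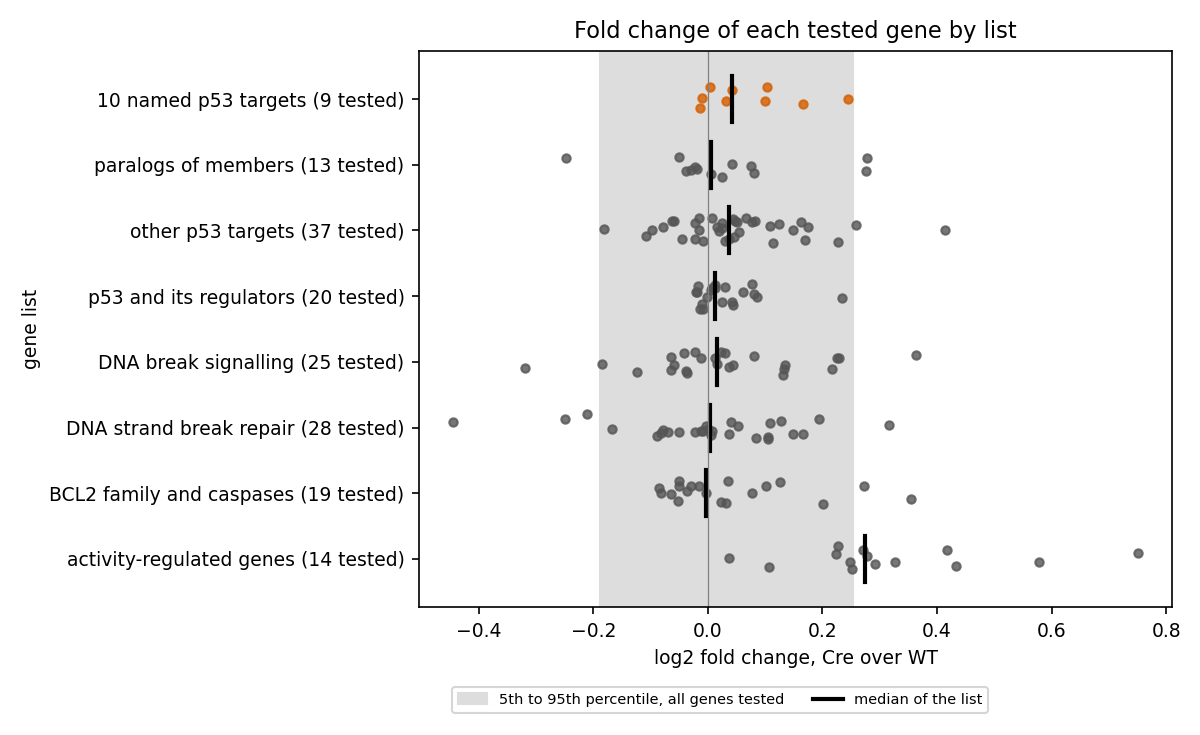
Log2 fold change of Cre over WT for each tested gene, by list, with the 10 named p53 targets (9 tested) in orange and the other lists in grey. Points are spread vertically for legibility, black lines are list medians, and the grey band runs from the 5th to the 95th percentile of all 15859 tested genes (-0.19 to 0.25). The medians of the p53 and DNA break lists lie near 0, and that of the activity-regulated genes lies at 0.27.

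Paralogs of the members were set beside them, among them Sesn2, which is also in the further list of p53 targets, and Mdm4, Bak1 and Bok, which are in other lists above. Of 15 paralogs, 13 were tested and 0 passed by edgeR, with 7 above 0 and a median of 0.0054. Gadd45b and Gadd45g were 2 of the 13 with an unadjusted p under 0.05, both higher in Cre, as were 2.05% of all tested genes. Gadd45b, induced by synaptic activity and linked to DNA demethylation in neurons, had 15.3, 15.8, 17.8 and 18.7 CPM in Cre, against 12.7, 14.7, 14.5 and 14.0 CPM in WT. All 4 Cre libraries lay above all 4 WT libraries, where 2.31% of all genes had groups that did not overlap (log2 fold change 0.28, SE 0.08, adjusted p = 0.999 by edgeR). Gadd45g had 20.7, 14.8, 18.8 and 18.5 CPM in Cre, against 13.6, 15.1, 15.9 and 15.8 CPM in WT. Here Cre replicate 2 fell among the WT libraries (0.28, SE 0.09). Trp53inp2, which works in autophagy, had 0.07 (SE 0.05), and the sestrin gene Sesn3 had 0.08 (SE 0.07). Gadd45a, the p53 target of the same family, had -0.01, and the difference between the family members was not tested.

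Activity-regulated genes were counted beside Gadd45b, Gadd45g and Btg2. All 14 were tested and lay above 0 (median 0.27), as did 50.2% of all tested genes. By edgeR 0 passed, and 5 had an unadjusted p under 0.05 with a higher level in Cre, against 2.05% of all genes. Their summed level was 813 to 1119 CPM in Cre and 690 to 896 CPM in WT, so the groups overlapped. Fos averaged 26.5 ± 5.91 CPM in Cre and 17.9 ± 3.22 CPM in WT (log2 fold change 0.58, SE 0.15), and Arc, Egr2 and Nr4a1 had 0.43, 0.75 and 0.33. Their part in the values of the Gadd45 genes was not tested.

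Most markers of microglia, astrocytes and oligodendrocytes had log2 fold changes above 0. Of 6 oligodendrocyte precursor markers 3 lay above 0 (median 0.01). Of 12 microglia markers 11 lay above 0 (median 0.19), with summed levels of 453 to 596 CPM in Cre and 419 to 451 CPM in WT, which did not overlap. Of 10 astrocyte markers 9 lay above 0 (median 0.10), at 5724 to 6388 CPM in Cre and 5328 to 5707 CPM in WT, which did not overlap either. All 10 oligodendrocyte markers lay above 0 (median 0.13). Their sums, 4093 to 5253 CPM in Cre and 4076 to 4529 CPM in WT, overlapped. The microglia and astrocyte lists also overlapped when taken as mean log2 CPM. The lowest Cre library had 4.82 against 4.83 in the highest WT library for microglia, and 8.06 against 8.07 for astrocytes. By edgeR 0 markers of these lists passed. An unadjusted p under 0.05, higher in Cre, was found for 6 microglia, 4 astrocyte and 2 oligodendrocyte markers, against 2.05% of all genes, and the groups did not overlap for 3 microglia and 2 astrocyte markers, against 2.31%. Without Cre replicate 1 the microglia median was 0.09 with 10 of 12 above 0, the oligodendrocyte median 0.05 with 8 of 10, and the astrocyte median 0.08 with 9 of 10. No marker of these glial lists was at 0 in any library. Their part in the values of the p53 targets was not tested. Markers of hippocampal excitatory neurons, the cell type in which Camk2a is active, had 6 of 10 above 0 and a median of 0.01. Their summed levels were 8400 to 9020 CPM in Cre and 8495 to 8991 CPM in WT. This list includes Camk2a, whose regulatory DNA is in the transgene. Of 5 CA1 neuron markers 1 lay above 0 (median -0.05), and of 6 dentate granule neuron markers 3 did (median -0.03).

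**Figure D4:**
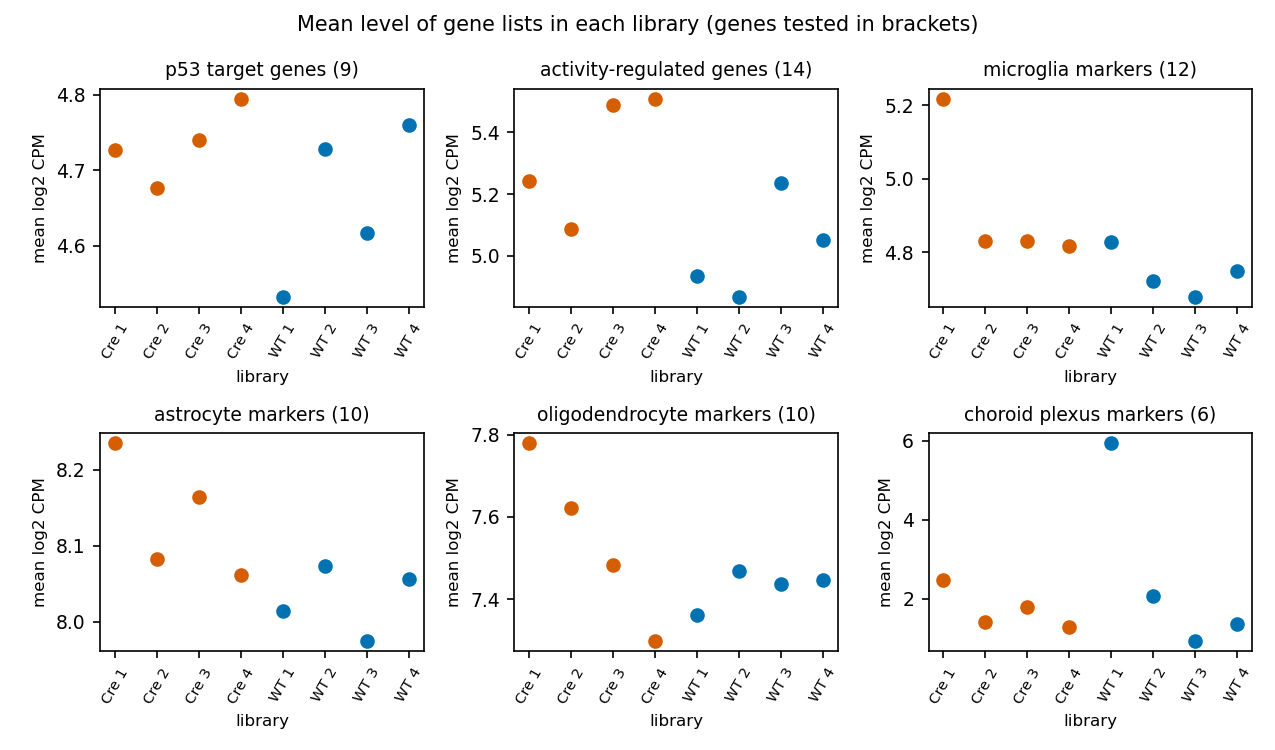
Mean log2 CPM over the tested genes of 6 lists in each library, with Cre libraries in orange and WT libraries in blue. Each panel has its own vertical axis, which does not start at 0. WT replicate 1 stands apart for choroid plexus markers and is the lowest for the p53 targets, and Cre replicate 1 is the highest for microglia, astrocyte and oligodendrocyte markers.

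The authors' deposited table gave log2 fold changes for the 9 tested members that differed from those computed here by at most 0.0014, as it was made from the same libraries. For Eda2r the authors' deposited table gave 0.14 with a p-value of 0.856. The lowest p-value among the 10 in the authors' deposited table was 0.0743, for Mdm2. The transcript of the Cre transgene was not analysed here, so the amount of recombinase in each library is unknown.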

How the data were processed

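Poly(A) RNA of hippocampus was sequenced from strand-keeping libraries as read pairs of 150 bases, per the labels' protocols. The authors' deposited table gives raw whole-number counts for each gene. STAR 2.6.1d, featureCounts and edgeR 3.11 were used by the authors with GRCm38, per the submitters' processing notes. Neither the strand setting nor the annotation release is given in the sources used here. The authors' deposited comparison table gives a log2 fold change and a p-value per gene.

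Here, low genes were removed with filterByExpr (count of at least 10, total of at least 15), leaving at least 99.9% of the counts of each library. Libraries were normalised by TMM. Cre was compared with WT by edgeR's quasi-likelihood test (edgeR 4.0.16, R 4.3.3, no covariate, 2-sided) across all genes, with Benjamini-Hochberg adjustment and a threshold of 0.05. Intervals are 95% on the fit's degrees of freedom. Single genes also had an exact permutation test of log2(CPM + 0.1) over all 70 assignments. Code was tested on simulated data. DESeq2 1.42.0, limma voom (limma 3.58.1), other scalings and filters, a replicate block and leaving out each library were alternatives. The closest 2 libraries differed by 3.76 times the counting noise (chi-square per degree of freedom), so all 8 were kept apart.

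Members and lists were chosen with earlier results of these data known. Named are all members, Trp53, Mdm4, Syt2, Slc6a7 and up to 4 genes of smallest p per list. Bbc3 and Pmaip1 were added after their values were seen. The table holds 272 repeated symbols, kept as separate entries. Positions and exon lengths are from GENCODE M21 (GRCm38), matched by symbol, and promoters from RefSeq.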

Additional observations from a re-analysis of the deposited data

Results flagged for a closer look

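In groups of 4 libraries, 3 of the 20 gene and group combinations of the 10 p53 targets held a library far from the others. The nominal rate of the rule is about 1 in 20 for independent values. Its rate over all tested genes was not computed, and the combinations share the same 8 libraries. The count is therefore not read as an excess in the p53 targets. Mdm2 had 57.2 CPM in Cre replicate 4, and its Cre replicates 1 to 3 had 50.5 to 51.6 CPM. Ccng1 had 73.7 CPM in WT replicate 4, against 66.9 to 67.4 CPM in the other WT libraries. Zmat3 had 78.4 CPM in WT replicate 1, against 90.0 to 91.5 CPM in the other WT libraries.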

How the results depend on the processing

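The count of called p53 targets was 0 in all 16 alternatives, and the count over all genes was 4 to 7 (main 5). The median log2 fold change of the 9 members was 0.04 to 0.05 in the 8 that kept all libraries, with 0.00090 to 0.090 when 1 library was left out, with 0.090 without WT replicate 4. Without that library Cdkn1a (0.39, unadjusted p = 0.0412 by edgeR) and Trp53inp1 (0.26, 0.0196) fell below 0.05 before adjustment. Small fold changes turned sign. Leaving out 1 library gave log2 values from -0.048 to 0.039 for Ccng1, -0.033 to 0.040 for Bax, -0.018 to 0.11 for Sesn1, -0.018 to 0.055 for Zmat3, -0.13 to 0.062 for Gadd45a, -0.015 to 0.018 for Trp53, -0.11 to 0.064 for Bbc3 and -0.11 to 0.25 for Pmaip1. Trp53 also turned to 0.00015 with RLE size factors, 0.0053 with library totals alone and 0.00056 with the filter of 1 CPM in 4 libraries. The cause was not tested. Same-numbered libraries had deviations correlated at -0.11 to 0.20, and 1 of 4 Cre libraries correlated best with its own number, so the numbers are not taken to pair them. With the replicate block Bax turned to -0.00065 and Trp53 to 0.00050, 1 activity-regulated gene was called (Fos, log2 fold change 0.56, adjusted p = 0.0112 by edgeR) where 0 were without it, and 0 members were called. With no filter Eda2r had a log2 fold change of 0.13 (fold limits 0.550 to 2.19), against a log2 ratio of its summed counts of 0.12. The other 6 gene lists had 0 called in all 16 alternatives, and the marker lists were recounted only without WT replicate 1 and without Cre replicate 1. Depth limits Eda2r most, at 2 to 14 counts a library.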
